A study of Mus musculus with 4 samples.

Results

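The 43 genes of the mouse proteasome, the protease that degrades ubiquitin-tagged proteins, were described across the cell classes of the thymus in single-cell RNA sequencing data. Members were all gene entries whose symbol is Psma, Psmb, Psmc, Psmd or Psme followed by a number, 43 of 55418 entries in the count tables. They comprise 8 alpha-ring genes (Psma1 to Psma8), 4 non-catalytic beta genes (Psmb1 to Psmb4), 3 constitutive catalytic genes (Psmb5, Psmb6 and Psmb7), 3 immunoproteasome genes (Psmb8, Psmb9 and Psmb10), the thymoproteasome gene Psmb11, 6 ATPase genes of the 19S particle (Psmc1 to Psmc6), 14 Psmd genes and 4 activator genes (Psme1 to Psme4). The Psmd genes encode non-ATPase subunits of the 19S particle, except Psmd5, Psmd9 and Psmd10, which encode chaperones of its assembly and are counted with it by their symbol. All 43 passed the filter on low counts and were tested.

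The study sorted reporter-positive thymic myeloid cells from C57BL/6 mice after Percoll enrichment and counted transcripts as unique molecular identifiers (UMIs). MAFIA mice, 5 weeks old, carried Csf1r-EGFP-NGFR/FKBP1A/TNFRSF6, a green reporter and suicide receptor under the promoter of the macrophage growth factor receptor Csf1r. Cd11cYFP mice, 9 weeks old, carried Itgax-Venus, a yellow reporter under the CD11c promoter, which is active in dendritic cells (DCs) and part of the macrophages. Each genotype gave 2 libraries, and the methods name 1 female MAFIA and 2 male Cd11cYFP mice, so reporter, age, sex and library cannot be told apart. No group was treated, and no wild-type or unsorted cells were among the samples used here.

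The proteasome is a barrel of stacked rings, the 20S core, with a 19S particle at its ends that binds ubiquitin chains, unfolds the substrate and feeds it in. In immune cells the catalytic subunits encoded by Psmb5, Psmb6 and Psmb7 can be exchanged for those of Psmb8, Psmb9 and Psmb10, whose peptides suit MHC class I. Psme1 and Psme2 encode the alternating subunits of the PA28 cap, which opens the core without ATP, while Psme3 and Psme4 encode the nuclear caps PA28-gamma and PA200. Psmb11 replaces Psmb5 in the epithelial cells of the thymic cortex, where positive selection of CD8 T cells takes place. Dendritic cells of the thymus present peptides to developing T cells. Thymic macrophages clear dying thymocytes, and the paper found that they can also present antigen to T cells, less well than DCs.

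The classes were built from 23549 cells of 3 libraries, named MAFIA replicate 2, Cd11cYFP replicate 1 and Cd11cYFP replicate 2. The median depth was 17493, 15759 and 17210 UMIs per barcode. MAFIA replicate 1 stood apart with a median of 3980.5 UMIs and took no part in the classes. Clusters were named from marker genes, without the 43 genes and their pathway partners, and 22403 cells fell into 18 classes, written here as "-like". Besides macrophages, monocytes and DCs these included B cell-like, T cell-like, epithelial-like and fibroblast-like cells, although the labels call the sort myeloid. Summed macrophage markers were 16239 to 22367 CPM in both macrophage-like classes and 62.4 to 105 CPM in Xcr1+ DC-like cells. Any 2 of these 3 libraries shared 10 to 25 cell barcodes. Members took 0.879%, 0.872% and 0.841% of the UMIs.

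Seen in the genome, the inducible genes other than Psmb10 lie close to another gene of the pathway. The DNA around the starts of members was searched for motif letters. In GRCm39, Psmb9 (chr17:34400960-34406738, minus strand) and Tap1 (chr17:34405996-34416199, plus strand), a subunit of the peptide transporter, overlap at their starts by 743 bases, and Psmb8 (chr17:34416690-34420428, plus strand) begins 490 bases after Tap1. Psme1 (chr14:55815190-55822034, plus strand) and Psme2 (chr14:55824895-55829173, minus strand) face each other across 2860 bases. On the same chromosome Psmb5 (chr14:54850776-54855481, minus strand) and Psmb11 (chr14:54858890-54867013, plus strand) start 3408 bases apart. Psmb10 (chr8:106662362-106665077, minus strand) lies alone. The sequences below, upstream of the start except for Psme1, are from RefSeq on the older build GRCm38.p6, 5′ to 3′ along the gene's strand. The motif that a search of both strands found is in capitals. In RefSeq the starts of Tap1 (34187556) and Psmb9 (34187330) do not overlap, so it places them otherwise than the annotation used for the positions above. They are shown for members that were among the largest differences of a comparison. Other such members, among them Psmb10, Psmb6 and Psmd10, are not shown, and a link between motif and level was not tested.
Psmb8, chr17:34197945-34198194, plus strand, with a STAT site (TTCNNNGAA): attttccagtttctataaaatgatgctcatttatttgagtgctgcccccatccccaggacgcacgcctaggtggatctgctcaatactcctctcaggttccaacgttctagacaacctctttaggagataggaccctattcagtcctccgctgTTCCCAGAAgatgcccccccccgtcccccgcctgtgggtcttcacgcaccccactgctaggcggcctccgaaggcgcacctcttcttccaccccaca
Psmb9, chr17:34187331-34187555, minus strand, the stretch between the starts of Tap1 and Psmb9, with a GC box (GGGCGG): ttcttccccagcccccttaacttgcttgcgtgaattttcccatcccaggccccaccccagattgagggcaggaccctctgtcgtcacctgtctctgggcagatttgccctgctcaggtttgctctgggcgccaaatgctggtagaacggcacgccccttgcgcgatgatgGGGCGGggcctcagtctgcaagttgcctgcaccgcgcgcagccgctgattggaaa
Psmb5, chr14:54617996-54618245, minus strand, with an antioxidant response element core (TGACNNNGC): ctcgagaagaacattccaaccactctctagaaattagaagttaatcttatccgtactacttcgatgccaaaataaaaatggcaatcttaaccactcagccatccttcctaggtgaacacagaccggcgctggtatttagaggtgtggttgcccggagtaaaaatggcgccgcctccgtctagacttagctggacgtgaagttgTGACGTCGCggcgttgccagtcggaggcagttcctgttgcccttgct
Psme2, chr14:55591102-55591351, minus strand, with a GC box on the other strand: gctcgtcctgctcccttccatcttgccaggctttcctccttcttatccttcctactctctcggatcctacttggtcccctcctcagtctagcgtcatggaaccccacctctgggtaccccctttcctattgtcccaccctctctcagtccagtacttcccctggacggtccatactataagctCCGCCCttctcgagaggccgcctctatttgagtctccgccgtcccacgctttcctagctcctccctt
Psme1, chr14:55578494-55578523, plus strand, the first 30 bases after the start, with the interferon-stimulated response element core (GAAA, any 2 bases, GAAA) on the other strand: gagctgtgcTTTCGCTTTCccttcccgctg

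The table held such windows for 36 of the 43 genes. The interferon-stimulated core was found in the windows of 4 members (Psmb3, Psmd4, Psmd9 and Psme1) and in 3.44% of all 32851 windows, which run from 250 bases before to 50 bases after a start. The STAT site was found in Psmb8 and Psmd2 (8.30% of all windows), and the kB site (GGG, any 2 bases, TTTCC) in no member (1.63%). The antioxidant core was found in 6 members, Psmb5, Psmb6, Psmc6, Psmd12, Psmd9 and Psme4 (12.4%), and the GC box in 22 members (35.7%). A match says only that the letters occur there.

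Proteasome transcript levels differed between the classes for every member. All 43 passed the test of any difference among the 18 classes, where 94.1% of all 19171 genes tested passed. The test was edgeR's quasi-likelihood F test on UMIs summed per class and library, with the library as a block and Benjamini-Hochberg adjustment over all genes at 0.05. Levels are given in normalised CPM, which are UMIs per class total corrected by a trimmed-mean (TMM) scaling factor for each sum. They are relative levels, neither a plain share of the class's UMIs nor an amount per cell.

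Summed over the 43 genes, the Ccr7+ DC-like cells, which express the lymph-node homing receptor of mature DCs, had the highest level with 14487, 14573 and 14344 CPM in MAFIA replicate 2, Cd11cYFP replicate 1 and Cd11cYFP replicate 2 on this scale. Proliferating Xcr1+ DC-like cells followed with 13918, 13019 and 11902 CPM, and resting Xcr1+ DC-like cells, the cross-presenting lineage, with 13517, 12488 and 11292 CPM. The last 2 overlapped each other. The place of the Ccr7+ class depended on the scaling. As a plain share of UMIs the members took 1.03%, 1.09% and 1.02% in Ccr7+, 1.15%, 1.11% and 0.991% in proliferating Xcr1+ and 1.06%, 1.03% and 0.881% in resting Xcr1+ DC-like cells, so the proliferating Xcr1+ cells were higher than the Ccr7+ cells in 2 of 3 libraries. Next came the proliferating B cell-like, monocyte-like, Cd209a+ DC-like and proliferating Cd209a+ DC-like cells, with means from 8941 down to 8406 CPM and libraries that overlapped between neighbours in this order. The lowest were fibroblast-like cells at 5337 ± 303 CPM (SD, n = 3) and Timd4+ macrophage-like cells at 5127 ± 663 CPM (SD, n = 3), which overlapped. As a share of UMIs the B cell-like cells, at 0.594%, 0.589% and 0.553%, lay below the fibroblast-like cells, at 0.738%, 0.624% and 0.578%, in each library, and the Timd4+ macrophage-like cells had 0.617%, 0.531% and 0.508%. In MAFIA replicate 2 the fibroblast-like class was 14 cells with 1394 CPM of fibroblast and 6174 CPM of epithelial markers, against 25072 and 20475 CPM of fibroblast markers in the Cd11cYFP libraries, so its name is not borne out in that library.

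The monocyte-like cells were the least even class, with 11114 CPM in MAFIA replicate 2 against 7642 and 7713 CPM in the Cd11cYFP libraries. In the same class MAFIA replicate 2 had 10197 CPM of monocyte markers against 4970 and 3178 CPM, and 2439 CPM of neutrophil markers against 54.6 and 37.8 CPM. Macrophage markers stood at 3423 CPM there against 6464 and 6203 CPM, which in the Cd11cYFP libraries was above the class's own monocyte markers. The part of these cells in the class's levels was not tested. Depth differed between classes too. The median cell held 261, 236 and 173 proteasome UMIs among the Xcr1+ DC-like cells and 53.0 to 100 among the Timd4+ macrophage-like cells, at median depths of 25264.5, 23793 and 20117 against 18619, 14137 and 12171.5 UMIs. The part of depth in the levels was not tested.

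**Figure D1:**
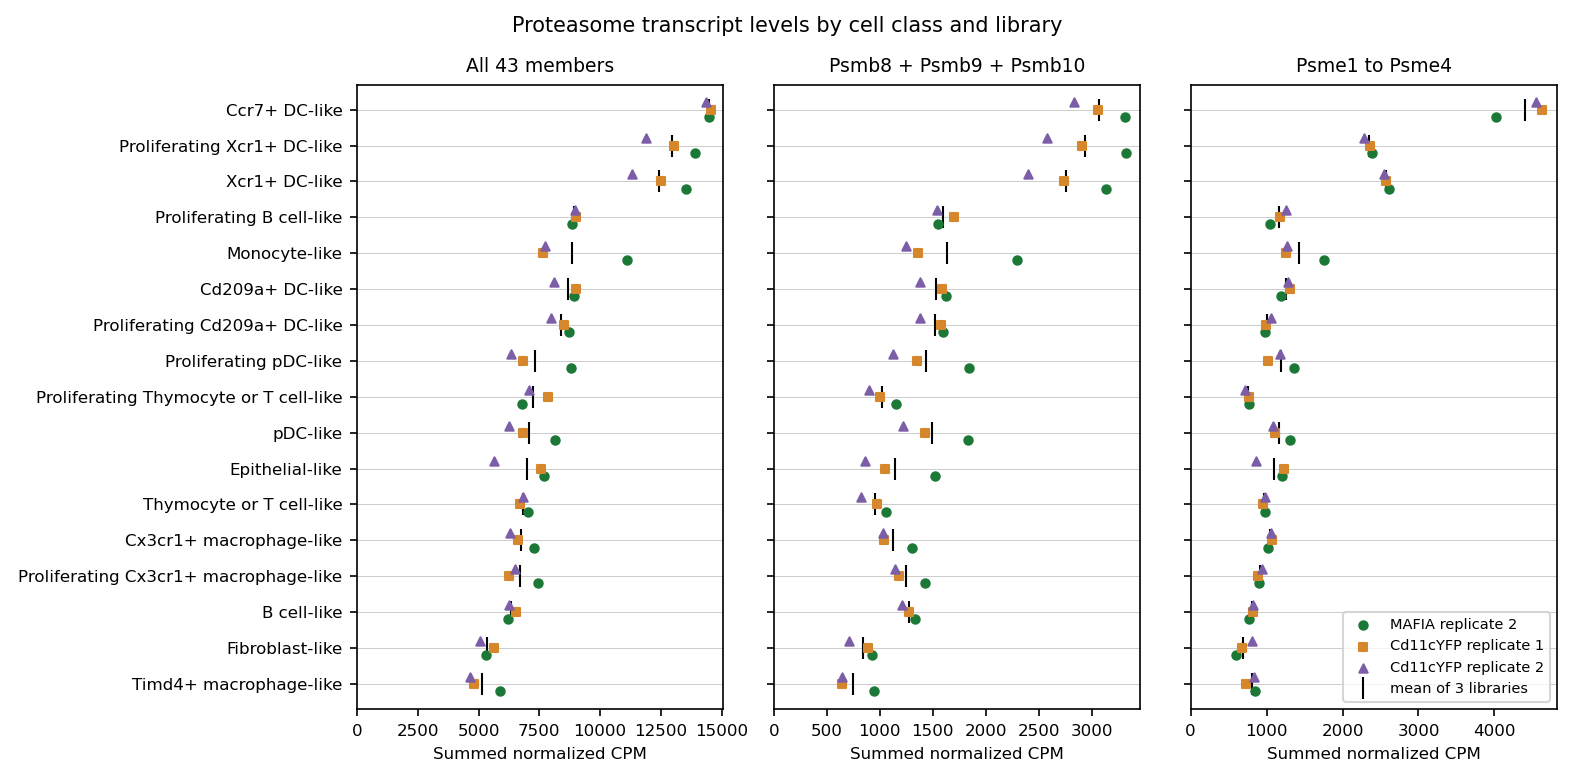
Summed proteasome transcript level (normalised CPM, x axis) in the 17 classes present in all 3 libraries (rows), for all 43 members, for Psmb8, Psmb9 and Psmb10 together, and for Psme1 to Psme4 together. Points are libraries and vertical ticks their mean. The Ccr7+ and both Xcr1+ DC-like classes have the highest values of each library in the left panel, from 11292 to 14573 CPM, and the Ccr7+ class stands alone in the right panel at 4027 to 4622 CPM.

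The subunit groups were also summed one by one. The 3 immunoproteasome genes summed to 3311, 3061 and 2834 CPM in Ccr7+ DC-like cells and to 3140, 2738 and 2398 CPM in Xcr1+ DC-like cells, which overlapped, and to 949, 640 and 648 CPM in Timd4+ macrophage-like cells, below both. The constitutive catalytic genes summed to 801 ± 123 CPM (SD, n = 3) in Xcr1+ and 637 ± 52.8 CPM in Ccr7+ DC-like cells, with overlap of the libraries. The activators summed to 4399 ± 325 CPM in Ccr7+ and 2574 ± 32.9 CPM in Xcr1+ DC-like cells, without overlap. The 6 ATPase genes had their lowest mean in pDC-like cells, with 532, 461 and 440 CPM, which overlapped the Timd4+ macrophage-like cells at 543, 497 and 419 CPM, while the alpha ring was lowest in Timd4+ macrophage-like cells, at 1082 ± 145 CPM.

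The comparison of Xcr1+ DC-like cells with Cx3cr1+ macrophage-like cells set a DC-like class against a macrophage-like one. Proteasome transcripts were higher in the DC-like cells for 31 members and lower for 1, beside 46.0% of all genes that passed, 21.2% higher and 24.7% lower. The median log2 difference of the members was 0.49, against -0.05 over all genes. All 14 genes of the standard core (Psma1 to Psma7 and Psmb1 to Psmb7) and 13 of the 20 Psmc and Psmd genes were higher.

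Psmb9 had 1218, 996 and 868 CPM in the Xcr1+ DC-like cells and 342, 278 and 284 CPM in the Cx3cr1+ macrophage-like cells. Every DC-like value lay above every macrophage-like value. Its log2 difference was 1.76 ± 0.14 (SE, adjusted p = 3.51e-14), the largest of the members. Psme1 followed at 1.58 ± 0.13 (adjusted p = 3.23e-14), from 1696, 1751 and 1776 CPM against 536, 607 and 601 CPM, and Psmb8 at 1.38 ± 0.12 (adjusted p = 2.95e-13), from 1641, 1534 and 1341 against 648, 538 and 548 CPM. The groups did not overlap for either gene.

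Psmb10, the third immunoproteasome gene, did not pass. It had 281, 208 and 189 CPM in the DC-like cells and 311, 229 and 203 CPM in the macrophage-like cells, and the groups overlapped, at a log2 difference of -0.13 ± 0.15 (adjusted p = 0.531). Its constitutive partner Psmb7 was higher in the DC-like cells by 0.82 ± 0.12 (adjusted p = 3.97e-07), as were Psmb5 by 0.97 and Psmb6 by 0.38. Psme4, the PA200 cap, was the only member that was lower, with 46.5, 50.2 and 50.2 CPM against 70.9, 63.1 and 63.7 CPM and a log2 difference of -0.43 ± 0.12 (adjusted p = 0.00193). The Cx3cr1+ libraries lay above the Xcr1+ libraries for Psme4 without overlap.

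Among pathway partners, 10 of 22 genes for assembly and associated proteins were higher and 5 lower. Pomp, the chaperone of core assembly, had 1136, 1024 and 991 CPM against 389, 332 and 355 CPM and was higher by 1.55 ± 0.11 (adjusted p = 1.19e-15). The others that led the list were Zfand2a, a stress-induced proteasome-binding protein, at -2.28 and Nfe2l2, the antioxidant transcription factor, at -1.63. Of 11 class I loading genes 5 were higher and 4 lower, led by B2m, the class I light chain, at -1.21 and the transporter subunit Tap2 at 1.18. Of 12 regulators 2 were higher, among them Irf8 at 1.86, and 5 lower.

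The comparison of Xcr1+ with Cd209a+ DC-like cells set the cDC1-like class beside another DC-like class. In MAFIA replicate 2, Cd11cYFP replicate 1 and Cd11cYFP replicate 2 the Cd209a+ class had 3362, 1085 and 2391 CPM of its own markers. It had 2099, 2125 and 1213 CPM of monocyte markers, which exceeded its own in Cd11cYFP replicate 1. The part of this in the differences was not tested. Here 14 members were higher in Xcr1+ cells and none lower, beside 26.7% of all genes, 12.7% higher and 14.1% lower. The median log2 difference was 0.19 for the members and -0.01 for all genes. The core gave 9 of the 14 calls, and 1 of 20 Psmc and Psmd genes, Psmd11, was higher. With library totals as the only scaling the split was 7 higher and 2 lower, and the members' median was -0.05 beside -0.23 for all genes.

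The largest differences were in inducible genes. Psmb9 had 446, 413 and 363 CPM in Cd209a+ cells, all below the Xcr1+ values given above, and differed by 1.32 ± 0.14 (adjusted p = 2.35e-10). Psme1 had 666, 801 and 786 CPM in Cd209a+ cells against 1696 to 1776 CPM and differed by 1.21 ± 0.12 (adjusted p = 1.58e-10). Psme2 had 426, 411 and 400 CPM against 812, 719 and 666 CPM and differed by 0.82 ± 0.15 (adjusted p = 2.86e-05), and Psmb8 differed by 0.71 ± 0.12 (adjusted p = 4.47e-06). None of these groups overlapped. Psmb10 had 249, 211 and 163 CPM in Cd209a+ cells, which overlapped the values of the Xcr1+ cells, with a log2 difference of 0.12 ± 0.15 (adjusted p = 0.614). The difference between the changes of Psmb9, in the MHC region, and Psmb10, outside it, was not tested.

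Partners in class I loading went with them in 6 of 11 genes, and none was lower. Tap1, which shares its start region with Psmb9, had 442, 355 and 316 CPM in Xcr1+ and 242, 211 and 194 CPM in Cd209a+ cells, without overlap, and differed by 0.77 ± 0.13 (adjusted p = 1.43e-05). Tapbpl, a peptide editor, differed by 1.11 and Tap2 by 1.06, while Pomp, at 0.97, led the 5 of 22 assembly genes that were higher (3 were lower). Of 12 regulators 3 were higher, including Irf8, the factor of the Xcr1+ lineage, at 3.74 ± 0.24 (adjusted p = 8.26e-16), and 3 were lower.

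Ccr7+ DC-like cells, the mature class, were compared with Xcr1+ DC-like cells. In MAFIA replicate 2, Cd11cYFP replicate 1 and Cd11cYFP replicate 2 the Ccr7+ class had 9721, 8441 and 9083 CPM of its own markers. It had 1385, 173 and 550 CPM of Cd209a+ markers and 130, 78.5 and 146 CPM of Xcr1+ markers. From which DC lineage its cells came was not tested. As many members were higher as lower, 10 each, beside 51.6% of all genes that passed, 28.7% higher and 22.9% lower, so the members' share of 20 in 43 was below the background. The median log2 difference was 0.01 against 0.17 over all genes. The split depended on scaling, with 16 higher and 10 lower by DESeq2, 15 and 8 with relative log expression and 6 and 15 with library totals. Leaving out Cd11cYFP replicate 1 or Cd11cYFP replicate 2 left 13 members called in each case.

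The largest differences were in the activator genes and in single genes of the other parts. Psme2 had 2055, 2201 and 2088 CPM in Ccr7+ and 812, 719 and 666 CPM in Xcr1+ cells, and no values overlapped. It was higher by 1.54 ± 0.15 (adjusted p = 1.45e-11), and Psme1 was higher by 0.34 ± 0.12 (adjusted p = 0.019), from 1888, 2339 and 2378 CPM. Psme3, the nuclear cap, was lower by a log2 difference of -0.76 ± 0.11 (adjusted p = 9.7e-08), at 33.3, 29.8 and 29.4 CPM against 51.8, 55.2 and 48.7 CPM, again without overlap. The activator genes thus moved in both directions.

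Psme2 UMIs per Psme1 UMI came to 1.09, 0.941 and 0.878 in Ccr7+ and to 0.479, 0.410 and 0.375 in Xcr1+ DC-like cells. The Ccr7+ ratio was the highest mean of all classes, 0.969 ± 0.108 (SD, n = 3), with proliferating B cell-like cells next at 0.896 ± 0.108 and overlapping it, and Xcr1+ DC-like cells lowest at 0.421 ± 0.0529. The proliferating B cell-like class carried 2204, 1798 and 1923 CPM of Ccr7+ DC markers beside 2814, 2440 and 2031 CPM of B cell markers. The part of this in its ratio was not tested. The values compare a gene pair across classes, since capture may differ between the genes. The near copy Psme2b on chromosome 11 held 11485 UMIs, 4.49% of those of Psme2, and how reads were split between the copies is not known here.

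Psmd10, the 19S assembly chaperone gankyrin, had 83.1, 79.1 and 80.8 CPM in Ccr7+ and 37.6, 37.1 and 37.3 CPM in Xcr1+ cells. The libraries of each class nearly coincided, and the gene was higher by 1.12 ± 0.12 (adjusted p = 8.66e-11). Psmd4, a ubiquitin receptor, was higher by 0.61 and Psmd6 lower, at -0.61. The ATPase Psmc3 was lower at -0.31.

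Among the catalytic genes Psmb10 was higher by 0.77 ± 0.15 (adjusted p = 2.66e-05), with 424, 372 and 342 CPM against 281, 208 and 189 CPM and no overlap. Psmb5 was lower, at -0.76 ± 0.14 (adjusted p = 6.95e-06), with 215, 153 and 153 CPM against 369, 282 and 235 CPM and no overlap. Psmb8 at 0.19 (adjusted p = 0.162), Psmb9 at -0.07 (adjusted p = 0.717), Psmb6 at -0.20 (adjusted p = 0.146) and Psmb7 at 0.00 did not pass. Psma8, the testis alpha subunit, passed at -1.44 ± 0.56 (adjusted p = 0.0316), but it had 377 UMIs in all classes together.

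The partners of the pathway moved in both directions in Ccr7+ cells. Nfe2l1, the factor that raises proteasome gene transcription when proteolysis is impaired, had 255, 294 and 298 CPM against 71.3, 74.8 and 78.0 CPM and was higher by 1.92 ± 0.12 (adjusted p = 5.19e-17). Psmg1, a chaperone of the alpha ring, was lower at -1.73, and Pomp at -0.81, among 7 higher and 7 lower of 22 assembly genes. Irf1, the interferon-responsive factor, had 369, 466 and 414 CPM against 39.1, 42.4 and 36.4 CPM and was higher by 3.40 ± 0.28 (adjusted p = 7.32e-14), while Ifngr1, a chain of the interferon-gamma receptor, was lower at -2.45. Of 12 regulators 6 were higher and 3 lower. Of 11 loading genes 5 were higher, led by Tapbpl at 1.77 and B2m at 1.37, and 3 lower, led by the disulphide isomerase Pdia3 at -1.55. Ube2l6, the enzyme for the ubiquitin-like protein ISG15, was higher by 2.08 ± 0.23 (adjusted p = 2.98e-10), among 4 higher and 2 lower of 8 ubiquitin genes.

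**Figure D2:**
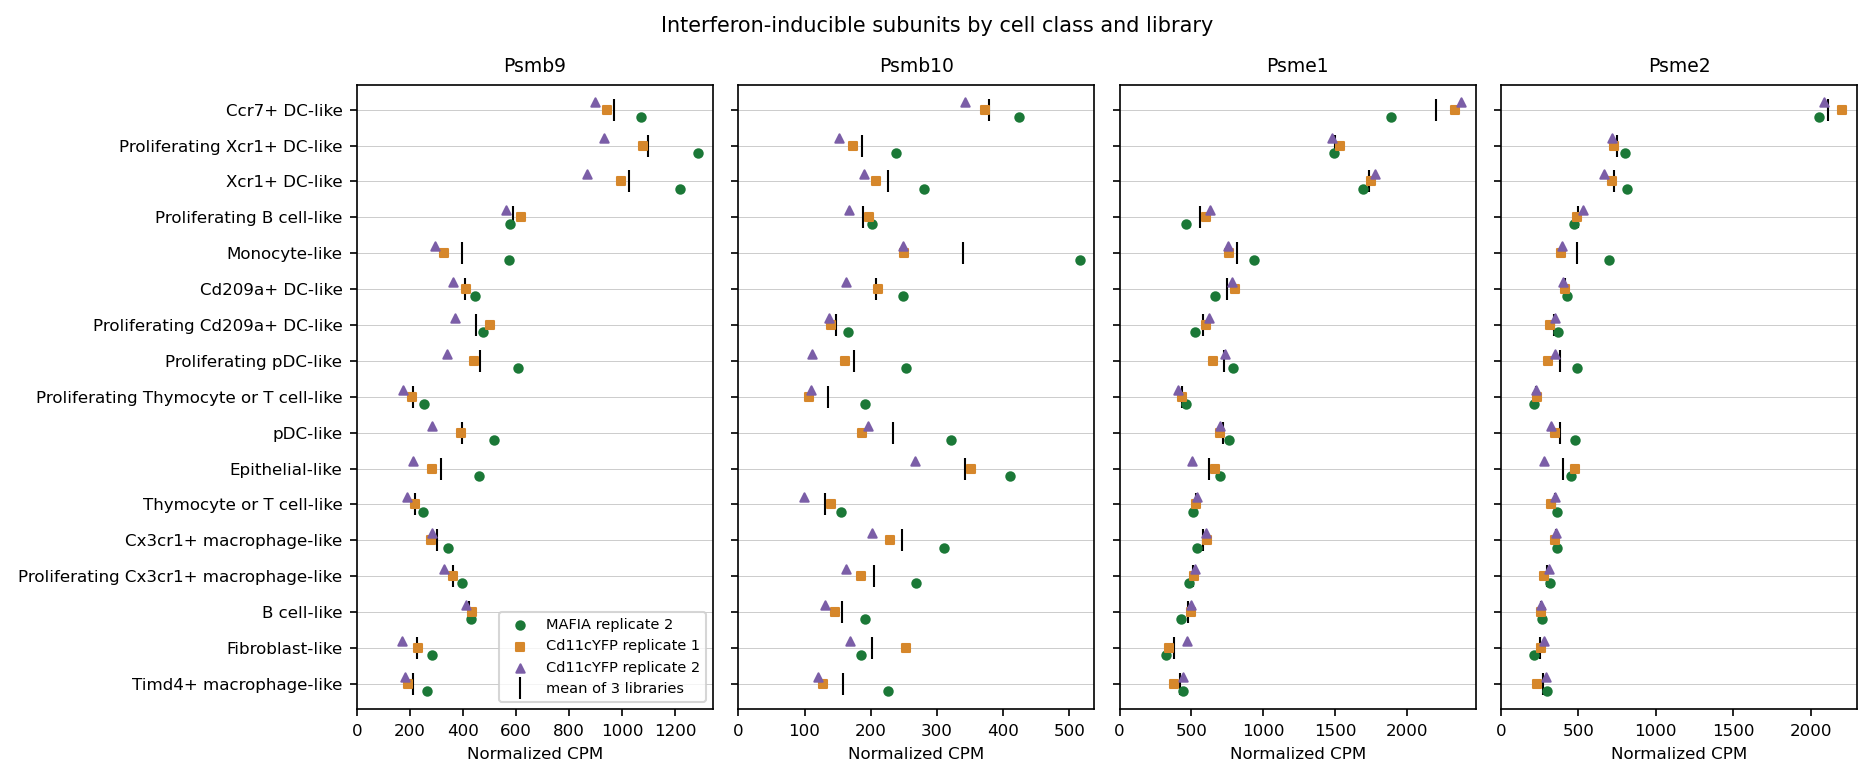
Levels (normalised CPM, x axis) of Psmb9, Psmb10, Psme1 and Psme2 in the 17 classes present in all 3 libraries (rows). Points are libraries and vertical ticks their mean. Psmb9 is high in the Ccr7+ and both Xcr1+ DC-like classes (868 to 1288 CPM), Psme2 above 2000 CPM in the Ccr7+ class alone, and the monocyte-like cells of MAFIA replicate 2 (517 CPM) exceed all other points for Psmb10.

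In pDC-like cells, the interferon-producing class, 37 members were lower than in Xcr1+ DC-like cells and none higher, beside 43.8% of all genes, 24.3% lower and 19.5% higher. The median log2 difference was -0.68 against -0.12 over all genes. All 14 genes of the standard core, 16 of 20 Psmc and Psmd genes and all 4 activators were lower. With library totals as the only scaling 18 were lower and 4 higher, while the median of all genes moved to 0.30 and that of the members to -0.21. Mitochondrial transcripts took 2.86%, 2.52% and 2.95% of UMIs in pDC-like and 1.48%, 1.33% and 1.40% in Xcr1+ DC-like cells, and their part was not tested.

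Psmb9 had 516, 393 and 283 CPM in pDC-like cells, below each Xcr1+ value, and was lower at -1.39 ± 0.14 (adjusted p = 2.84e-11). Psmb7 had 87.8, 77.7 and 71.4 CPM against 190.4, 216 and 175 CPM and was lower at -1.27 ± 0.13 (adjusted p = 4.75e-11), and Psme1 was lower at -1.27 ± 0.12 (adjusted p = 1.73e-11), with 763, 703 and 701 CPM. Neither pair of groups overlapped. Psmb10 did not pass here either, at 321, 187 and 195 CPM, overlapping the Xcr1+ values, with a log2 difference of 0.04 ± 0.15 (adjusted p = 0.904). Psma8, at -2.38 ± 0.87 (adjusted p = 0.0237), had 0 to 0.729 CPM in pDC-like cells.

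Pomp was lower by the same comparison at -1.45 ± 0.11 (adjusted p = 1.35e-14), among 14 lower and 1 higher of 22 assembly genes. Of 11 loading genes 5 were lower and none higher, with the chaperone Calr at -1.39 and Tap1 at -1.07. Of 12 regulators 5 were lower, led by Ifngr1 at -2.52, and Irf1 alone was higher, at 1.82 ± 0.27 (adjusted p = 3.06e-07).

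The study separates thymic macrophages into a Timd4+ and a Cx3cr1+ population. In Cx3cr1+ macrophage-like cells 25 members were higher than in Timd4+ macrophage-like cells and none lower, beside 21.4% of all genes, 10.8% higher and 10.6% lower. The median log2 difference was 0.36 against -0.00 over all genes. Among these were 11 of 14 genes of the core, 10 of 20 Psmc and Psmd genes and all 3 immunoproteasome genes. The count fell to 9 without Cd11cYFP replicate 1, to 6 without Cd11cYFP replicate 2, to 10 with library totals as the only scaling and to 12 without the library block. Mitochondrial transcripts took 3.04%, 2.31% and 2.97% of UMIs in Timd4+ and 2.50%, 1.58% and 2.08% in Cx3cr1+ cells, higher in the Timd4+ cells of each library, and their part was not tested.

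Psmb6, a constitutive catalytic gene, had 266, 237 and 215 CPM in Cx3cr1+ and 182, 139 and 128 CPM in Timd4+ cells, without overlap, and was higher by 0.68 ± 0.12 (adjusted p = 1.91e-05). Psmb10 was higher by 0.67 ± 0.15 (adjusted p = 0.000671), although its highest Timd4+ library (226 CPM) exceeded the lowest Cx3cr1+ library (203 CPM). Psmb8 had 648, 538 and 548 against 458, 319 and 347 CPM and was higher by 0.63 ± 0.12 (adjusted p = 4.62e-05), and Psmb9 was higher by 0.52 ± 0.14 (adjusted p = 0.00408). All 3 constitutive catalytic genes and all 3 immunoproteasome genes were higher. The calls of Psma1, Psma4, Psmb3, Psmb6 and Psmb8 held in all 16 settings tried, the reported one included.

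B2m was higher by 0.88 ± 0.16 (adjusted p = 2.28e-05) and none of the 11 loading genes was lower, with 6 higher. Nfe2l2 was higher by 0.82 and Nfe2l1 lower at -0.55, among 3 higher and 4 lower of 22 assembly genes. Of 12 regulators 4 were higher and 1 lower. Socs1, an inhibitor of interferon signalling, was higher by 1.23 ± 0.35 (adjusted p = 0.00672).

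Both macrophage-like classes were set against the monocyte-like cells. Against monocyte-like cells 31 members were lower and 1 higher in Timd4+ macrophage-like cells, beside 35.5% of all genes, 15.9% lower and 19.6% higher. In Cx3cr1+ macrophage-like cells 17 were lower and none higher, beside 22.2% of all genes, 9.34% lower and 12.8% higher. The median log2 differences were -0.63 and -0.28 for the members and 0.09 in both cases for all genes. All 14 genes of the core were lower in Timd4+ and 10 of 14 in Cx3cr1+ cells. The comparisons share the monocyte-like sums, where MAFIA replicate 2 lay above the others and carried the neutrophil markers given above, and where macrophage markers exceeded monocyte markers in the Cd11cYFP libraries. The Cx3cr1+ count was 11 without that library, 9 without Cd11cYFP replicate 2 and 8 without the library block, while the Timd4+ count stayed between 29 and 32 when any 1 library was left out.

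Psmb8 had 1207, 784 and 704 CPM in monocyte-like cells against 458, 319 and 347 CPM in Timd4+ cells, without overlap, and was lower at -1.25 ± 0.12 (adjusted p = 1.18e-11) in the latter. In Cx3cr1+ cells it was lower at -0.62 ± 0.12 (adjusted p = 7.68e-05). Psma4, of the alpha ring, was lower at -1.19 ± 0.13 (adjusted p = 8.4e-10) in Timd4+ and at -0.58 ± 0.13 (adjusted p = 0.000721) in Cx3cr1+ cells, from 369, 212 and 250 CPM in monocyte-like cells. Psma7, another alpha subunit, had the largest difference in Cx3cr1+ cells, -0.72 ± 0.12 (adjusted p = 1.61e-05). Psmb10 was lower at -1.09 ± 0.15 (adjusted p = 1.6e-07) in Timd4+ cells and at -0.41 in Cx3cr1+ cells (adjusted p = 0.0412).

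Psmc1, a 19S ATPase, was the member that was higher in Timd4+ cells, by 0.34 ± 0.13 (adjusted p = 0.0385). It had 84.2, 89.2 and 71.9 CPM against 74.5, 59.9 and 60.0 CPM, and the groups overlapped. Among partners Sem1, a small 19S subunit outside the naming rule, was lower at -1.13 ± 0.10 (adjusted p = 1.84e-12) in Timd4+ cells, and Tap1 at -0.82, Socs1 at -1.67 and Ube2l6 at -1.46 led their lists. Of the 11 loading genes 2 were higher and 3 lower in Timd4+ cells, and 3 were higher and none lower in Cx3cr1+ cells.

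Proliferating Xcr1+ DC-like cells were compared with the resting ones to ask whether the members differ with cycling. Only 4 members passed, 3 higher and 1 lower, beside 12.8% of all genes, 7.78% higher and 5.04% lower. The median was 0.12 against -0.05 over all genes. Of 9 cell-cycle genes 8 were higher, which helped to define the class. None of the member calls held in all 16 settings, and the count was 1 without Cd11cYFP replicate 1, 0 without Cd11cYFP replicate 2, 2 without the library block or without the filter on low counts, 9 with DESeq2 (8 higher), 10 with library totals (9 higher) and 31 when only these 2 classes were fitted.

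The 3 higher ones were among the 20 Psmc and Psmd genes. Of these 15% passed, beside 12.8% of all genes that passed and 7.78% that were higher. With so few calls the parts of the proteasome are not ranked against each other. Psmc1 had 91.7, 91.1 and 84.6 CPM against 55.2, 67.0 and 57.6 CPM, without overlap, at 0.57 ± 0.12 (adjusted p = 0.000654). Psmc3 was higher by 0.39 ± 0.10 (adjusted p = 0.00787) and Psmd1 by 0.36 ± 0.12 (adjusted p = 0.0415). Psme4 was lower at -0.43 ± 0.12 (adjusted p = 0.01), with 36.6, 34.0 and 38.7 CPM against 46.5, 50.2 and 50.2 CPM. No core gene passed. Akirin2, which brings proteasomes into the nucleus after mitosis, was higher by 1.02 ± 0.12 (adjusted p = 1.15e-08) and the 19S-bound deubiquitinase Uchl5 by 0.91 ± 0.12 (adjusted p = 1.32e-07). The resting class contained a cluster of 370 cells (9.32%) led by DNA replication genes, and without it 4 members passed.

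**Figure D3:**
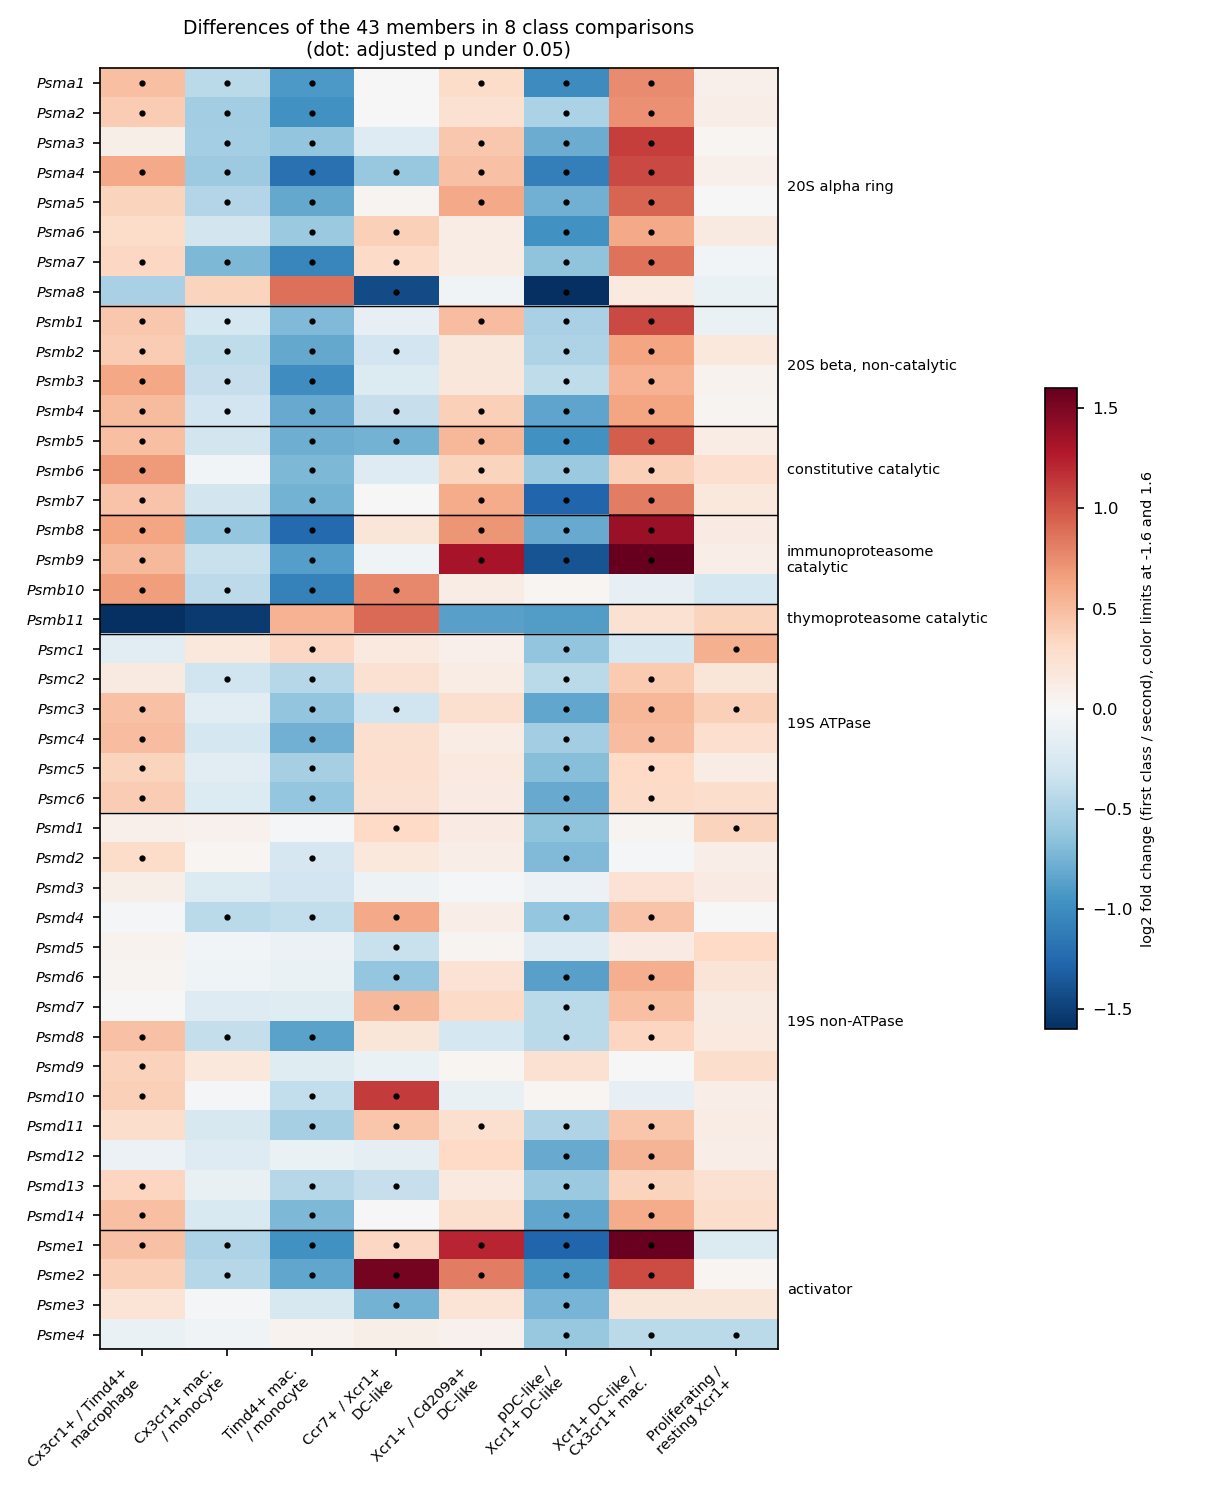
Log2 fold change (colour, limited to -1.6 and 1.6) of the 43 members (rows, by part of the proteasome) in the 8 comparisons of classes (columns), with a dot where the adjusted p was under 0.05. The Timd4+ against monocyte-like and pDC-like against Xcr1+ DC-like columns are blue for all 14 standard core genes, and the last column, proliferating against resting Xcr1+ cells, holds 4 dots.

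Xcr1+ DC-like cells enter 5 of the comparisons, Cx3cr1+ macrophage-like cells 3, and Timd4+ macrophage-like and monocyte-like cells 2 each, so columns that share a class are not independent of each other. Whether a difference between classes itself differed between the MAFIA library and the 2 Cd11cYFP libraries was tested as an interaction over 16690 genes with edgeR. No member passed in any of the 8 comparisons. Of all genes 0.0120%, 0.791%, 0.677%, 0.348%, 0.168%, 0.318%, 0.234% and 0.00599% did, for the 8 comparisons in the order Cx3cr1+ against Timd4+, Cx3cr1+ against monocyte-like, Timd4+ against monocyte-like, Ccr7+ against Xcr1+, Xcr1+ against Cd209a+, pDC-like against Xcr1+, Xcr1+ against Cx3cr1+ and proliferating against resting Xcr1+ cells. At an unadjusted p under 0.05 there were 9 members for Cx3cr1+ macrophage-like against monocyte-like cells, 2 for Timd4+ macrophage-like against monocyte-like cells, 2 for pDC-like against Xcr1+ cells, 1 for Cx3cr1+ against Timd4+ cells, 1 for Ccr7+ against Xcr1+ cells and 0 for the other 3. MAFIA is 1 library here, so its replicate spread is unknown.

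The exchange of catalytic subunits was read as the share of a pair's UMIs that belonged to the immunoproteasome gene. The share of Psmb8 in Psmb8 plus Psmb5 was highest in Ccr7+ DC-like cells, 89.4%, 92.0% and 91.2%, and lowest in epithelial-like cells with a mean of 74.3% ± 2.26 (SD, n = 3). Every Ccr7+ library lay above every library of the other classes. The exact binomial 95% interval of the first value was 89.0% to 89.9%, which covers counting error only. A share compares classes for 1 pair, and its distance from equal parts is not interpreted, since genes may be captured unequally.

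The share of Psmb9 in Psmb9 plus Psmb6 separated the DC-like classes. It was 78.2%, 78.3% and 78.3% in Ccr7+ cells, 77.0%, 76.4% and 76.5% in Xcr1+ cells and 62.5% ± 1.59 in Cd209a+ cells. In macrophage-like cells it was 54.0% to 56.9% (Cx3cr1+) and 58.2% to 59.2% (Timd4+), and in proliferating T cell-like cells 47.7% ± 7.55. The Ccr7+ and Xcr1+ libraries lay above all the DC-like and macrophage-like libraries named after them.

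The share of Psmb10 in Psmb10 plus Psmb7 ran in another order. Its mean was highest in pDC-like cells, with 78.5%, 70.6% and 73.2%, which overlapped the fibroblast-like cells at 70.8%, 75.6% and 73.4%. It was lowest in proliferating Xcr1+ DC-like cells, 45.9% ± 6.58, which overlapped the proliferating T cell-like cells at 62.0%, 38.2% and 43.6%, with 53.5% ± 5.43 in resting Xcr1+, 66.0% ± 3.26 in Ccr7+ and 68.9% ± 3.64 in Cx3cr1+ macrophage-like cells. The pDC-like cells had a Psmb9 share of 65.2% ± 4.39, below every Xcr1+ library, and a Psmb10 share above every Xcr1+ library. No test was fitted to the shares.

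The Psmb10 share also moved with the library. MAFIA replicate 2 had the highest of the 3 values in 16 of 17 classes, on average 8.75 percentage points above the Cd11cYFP libraries. For Psmb8 it had the lowest value in 12 of 17 classes. Over all cells the Psmb10 share was 66.0% and 67.5% in the MAFIA libraries, replicate 1 included, and 58.3% and 56.4% in the Cd11cYFP libraries, which do not overlap. The methods name 1 MAFIA mouse, so the MAFIA libraries may not come from separate animals. A share over all cells also depends on the mix of classes. The pDC-like cells, with the highest mean Psmb10 share, were a larger part of MAFIA replicate 2 than of either Cd11cYFP library. The part of this mix in the all-cell shares was not tested. Reporter, age, sex and library cannot be told apart in these differences.

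**Figure D4:**
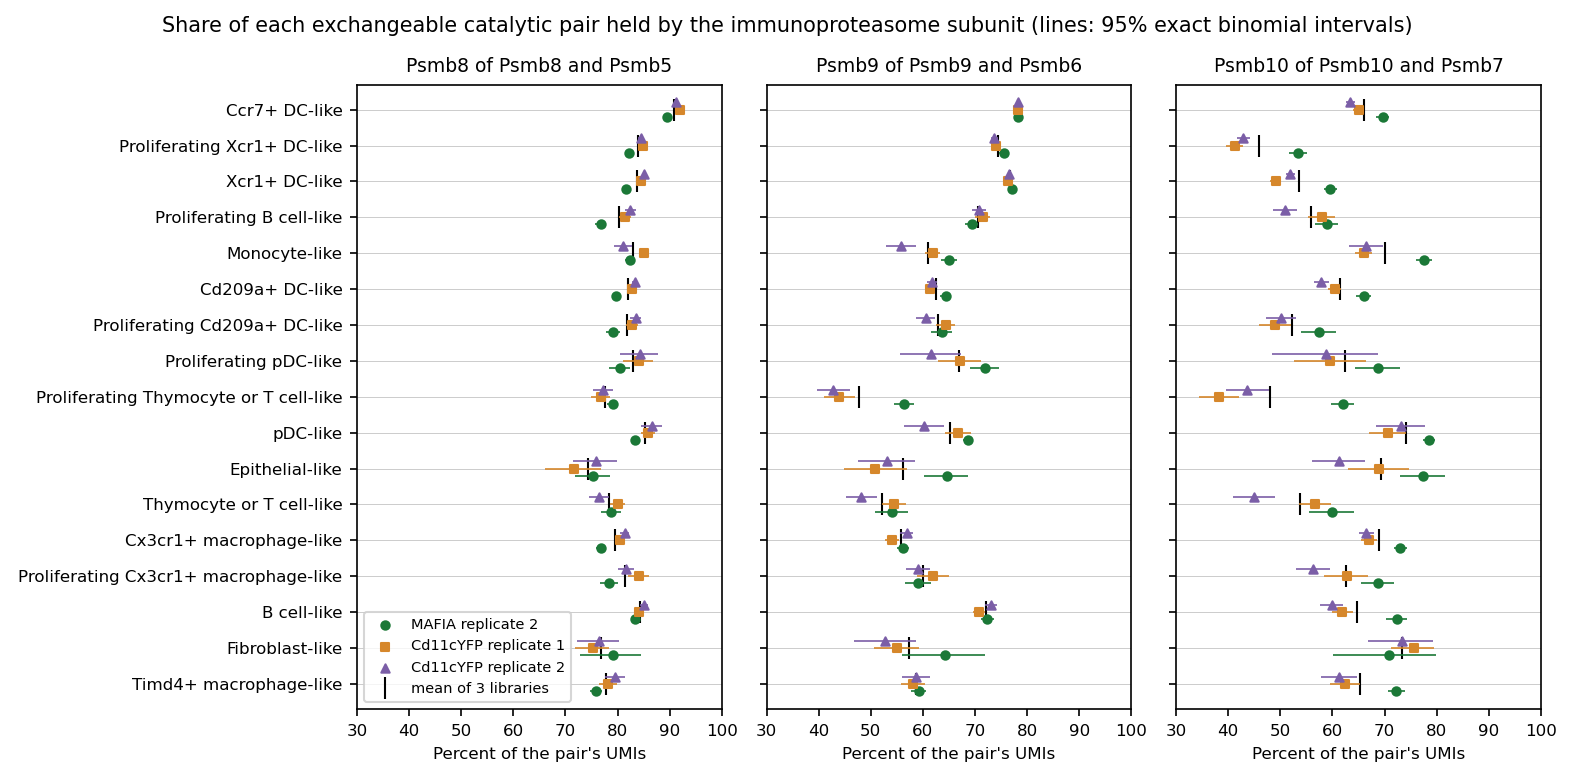
Percent of a pair's UMIs (x axis) that belonged to Psmb8, Psmb9 or Psmb10, against Psmb5, Psmb6 and Psmb7, in the 17 classes (rows). Points are libraries with exact binomial 95% intervals and ticks their mean. The axis starts at 30%. The Psmb8 share is highest in Ccr7+ cells (89.4% to 92.0%), while the Psmb10 points of MAFIA replicate 2 lie to the right of the others in 16 of 17 classes.

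Psmb11, the gene of the thymic cortical epithelium, was scarce, with 164, 163 and 100 UMIs in the 3 libraries. In 6 cells it had 10 or more UMIs (44, 30, 21, 14, 12 and 12), which held 31.1% of its UMIs in MAFIA replicate 2, 50.3% in Cd11cYFP replicate 1 and 0% in Cd11cYFP replicate 2. Of these cells 4 were in the epithelial-like and 2 in the fibroblast-like class, and all 6 also carried UMIs of Foxn1, the master factor of thymic epithelium, of its target Ccl25 and of the keratin Krt8. The 2 fibroblast-like cells held 128 and 91 UMIs of the cortical protease Prss16, and the 4 epithelial-like cells 0, 14, 1 and 0. Cxcl12 had 44 and 49 UMIs in the fibroblast-like cells and 0 in each epithelial-like cell. Ly75 had 16 and 24 UMIs in the fibroblast-like cells and 8, 0, 0 and 0 in the epithelial-like cells.

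Outside those cells, Timd4+ macrophage-like cells had 23, 9 and 9 Psmb11 UMIs, which is 2.48, 1.81 and 2.34 CPM of the class's total without further scaling. Cx3cr1+ macrophage-like cells had 9, 2 and 5 UMIs (0.737, 0.189 and 0.373 CPM), and B cell-like cells, which should lack the gene, 3, 1 and 3 UMIs (0.360, 0.0900 and 0.284 CPM). Each Timd4+ value lay above each value of both these classes, but other classes reached the Timd4+ range. Proliferating Cx3cr1+ macrophage-like cells had 1.85, 0.644 and 0 CPM (4, 1 and 0 UMIs). Proliferating pDC-like cells had 0.914, 3.08 and 0 CPM (1, 2 and 0 UMIs). That class also carried 4092, 2880 and 2772 CPM of macrophage markers and 636, 282 and 437 CPM of Timd4+ macrophage markers. The resting pDC-like cells had 163, 109 and 100 CPM of macrophage markers, and the part of this was not tested. Monocyte-like cells stood at 1.37, 1.25 and 1.25 CPM, below the Timd4+ values. The log2 difference of Cx3cr1+ from Timd4+ cells was -2.09 ± 0.85 and missed the threshold (adjusted p = 0.0773). Prss16 stood at 1.83, 3.22 and 1.82 CPM in the Timd4+ cells and at 0.491, 0.283 and 0.0745 CPM in the Cx3cr1+ cells, and the part of transcripts from other cells was not tested.

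The genes outside the proteasome whose mean log level over the 17 classes was most like that of Psmb8, Psmb9 and Psmb10 together were Rtraf, Tmem167, Plekhj1, Arpp19 and Ufm1, with Pearson's r of 0.943, 0.928, 0.924, 0.910 and 0.907. The points share libraries and depth, and r is given as a description.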

How the data were processed

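Libraries were made with a droplet kit that counts transcript 3′ ends. The deposited tables hold the authors' unnormalised UMI counts for each gene in each cell barcode they had accepted. The labels name STAR 2.7.9a, Cell Ranger and GRCm39, whereas the methods name mm10 as the reference. Gene positions follow the build of the labels. Barcodes with 1000 to 7000 genes and under 10% mitochondrial UMIs were kept. Clusters came from 2000 variable genes, 70 components, a graph with 3 neighbours per library and Leiden resolution 1 (33 clusters), leaving out 96 genes (the members and their partners), and were named from marker lists. 8 clusters stayed unnamed or mixed. Predicted doublets were kept, and removing them was an alternative. UMIs were summed per class and library where at least 10 cells were present (52 sums) and all classes were fitted together by edgeR 4.0.16 (TMM, class and library as terms, 32 residual degrees of freedom), in R 4.3.3, after tests on simulated data. Where few genes were changed in the simulation, false calls exceeded the nominal rate, so calls near the threshold (such as Psma8, Psmc1 in Timd4+ cells, Psmb10 in Cx3cr1+ against monocyte-like cells, and Psmd1) are less certain than their adjusted p. The library was the block because its classes come from the same cell suspension.

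Members, lists and markers were chosen with earlier results of these data known. Named genes were the catalytic and activator members and, per comparison, the 3 largest changes in each direction that passed with 1 sign in every library, and the 3 largest that passed in each partner list (Pomp, Tap1, and single values of Psmd4, Psmd6, Psmd11 and Psmc3 were added after their values were seen). Some genes that this rule names are not reported here. Partner lists covered assembly (22 of 23 genes tested), class I loading (11), regulators of inducible subunits (12), ubiquitin (8) and cell cycle (9). Cell-cycle genes served to define the proliferating classes and were used as a check only. Libraries held 26876378 to 185882793 UMIs. p-values rest on 3 libraries. MAFIA replicate 1 was left out of the classes for its depth. Of the 43 members 25 overlap a gene on the other strand and 10 one on the same strand, where counts are less certain. Alternatives were DESeq2 1.42.0, 2 other scalings, no low-count filter, no block, 2 other resolutions, count splitting, doublet removal, a 5% mitochondrial limit, only the compared classes, and each library left out.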

Additional observations from a re-analysis of the deposited data

Results flagged for a closer look

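MAFIA replicate 1, which took no part in the comparisons of classes, gave a signal of the same genes outside the main measurement: members took 0.863% of its UMIs, within the range of 0.841% to 0.879% in the other 3 libraries, at a median depth of 3980.5 UMIs per barcode against 15759 to 17493. No group of classes had the 4 or more libraries that a search for outlying samples needs.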

How the results depend on the processing

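No named member that passed changed its sign under any alternative, while members that had not passed could change sign around 0. For Ccr7+ against Xcr1+ cells the balance of calls turned, from 10 each to 16 higher and 10 lower with DESeq2 and to 6 higher and 15 lower with library totals. The count of members that passed in Cx3cr1+ against Timd4+ macrophage-like cells (25) was 10 (9 higher and 1 lower) with library totals as scaling, and ranged from 6 to 26 with 1 library left out. Cx3cr1+ macrophage-like against monocyte-like cells (17) ranged from 9 to 12, Ccr7+ against Xcr1+ DC-like cells (20) from 13 to 21, and proliferating against resting Xcr1+ cells (4) from 0 to 6. Xcr1+ against Cd209a+ DC-like cells (14) gave 9 with library totals, 29 when clustering and testing used separate random parts of the counts and 28 at a higher clustering resolution, and pDC-like against Xcr1+ cells (37) gave 22 with library totals. Proliferating against resting Xcr1+ cells gave 9 with DESeq2, 10 with library totals, 2 without the low-count filter and 31 when only those classes were fitted. The cause of these shifts was not tested.

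Fitting without the library as a replicate block gave 12 members for Cx3cr1+ against Timd4+ macrophage-like cells, 8 for Cx3cr1+ macrophage-like against monocyte-like cells and 2 for proliferating against resting Xcr1+ cells, and moved no other count by over 1.5 times. The block pairs the classes of a library. The reporters are different mice and were not paired.

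Library totals moved the median of all genes by over 0.1 on the log2 scale, to -0.16 for Cx3cr1+ against Timd4+ macrophage-like cells, 0.30 for Timd4+ macrophage-like against monocyte-like cells, 0.05 for Ccr7+ against Xcr1+ cells, -0.23 for Xcr1+ against Cd209a+ cells, 0.30 for pDC-like against Xcr1+ cells and -0.27 for Xcr1+ against Cx3cr1+ cells. There the Xcr1+ against Cx3cr1+ split was 21 higher and 5 lower. Removing doublets moved the Psmb8 share in Timd4+ cells to 75.7% and the Psmb9 share to 53.8% in Cx3cr1+ and 56.1% in Timd4+ cells. Count splitting moved the Psmb9 share to 78.2% (Ccr7+), 64.5% (Cd209a+) and 57.3% (Timd4+), the lower resolution to 78.1% (Ccr7+) and 58.1% (Timd4+), the higher to 77.5% (Ccr7+) and 64.2% (Cd209a+), and the 5% mitochondrial limit to 78.0% (Ccr7+). Calls held in all 16 settings, the reported one included, for 26 members in Timd4+ macrophage-like against monocyte-like cells, 22 in Xcr1+ against Cx3cr1+, 18 in pDC-like against Xcr1+, 9 in Ccr7+ against Xcr1+, 7 in Xcr1+ against Cd209a+, 7 in Cx3cr1+ macrophage-like against monocyte-like and 5 in Cx3cr1+ against Timd4+ cells. Depth limits Psmb11 and Psma8 most, with 408 and 377 UMIs over the named classes.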
